A study of Mus musculus with 15 samples.

Results

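The genes described here handle lipid uptake, lipid storage and cholesterol in neutrophils. They were chosen by name as 9 genes: Hilpda, Plin2, Cd36, Lpl, Fabp4, Fabp5, Ch25h, Abca1 and Abcg1, each found by its current or former symbol in the probe annotation. Of these 9 genes, 6 had a named probe among the probes tested, with 7 probes in all, out of 11075 named genes and 16316 probes. Cd36, Fabp4 and Abca1 were not analysed here.

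RNA of 3 populations of BALB/c mouse neutrophils was measured on Illumina bead arrays. Tumor-associated neutrophils (TAN, 4 arrays) were sorted as Ly6G+ cells from flank tumors of the mesothelioma line AB12, 12 to 15 days after injection. Granulocytic myeloid-derived suppressor cells (G-MDSC, 4 arrays) were Ly6G+ cells from the spleens of mice with larger AB12 tumors, 21 to 25 days after injection. Naïve neutrophils (NN, 7 arrays) came from the bone marrow of mice without tumors. RNA of 2 to 4 mice was pooled for each array. By the sample labels, cells of every population were enriched on CD11b beads and sorted for Ly6G, whereas by the methods NN were separated on a Percoll gradient, so that tissue and possibly isolation differ with the population.

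A neutral lipid droplet stores triglyceride and cholesterol ester behind a coat of proteins. Cells fill it with fatty acids that lipases free from lipoproteins and that binding proteins carry through the cytoplasm, and empty it through droplet lipases. Cholesterol leaves macrophages and other cells through membrane transporters that oxysterols, the oxidized forms of cholesterol, induce through liver X receptors. Myeloid cells that take up much lipid are known from atherosclerotic plaques and from tumors.

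The sequences upstream of the pair of these genes that differed most between TAN and NN, Hilpda and Ch25h, are shown because both were high in the same arrays. Promoters from RefSeq (GRCm38.p6) matched 5 of the 9 genes. The lines run 5′ to 3′ on the strand of the gene, with matches to the motifs searched in capitals, and the Ch25h line and the first Hilpda line each hold the 250 bases before a start site. Hilpda has 2 annotated starts, and the window of the upstream one (chr6:29272238-29272487, plus strand) is given whole. For the downstream one, only a stretch of 29 bases around the hypoxia core motif ACGTG is given (chr6:29272571-29272599, plus strand). The Ch25h window lies at chr19:34475149-34475398 on the minus strand.
Hilpda, upstream start: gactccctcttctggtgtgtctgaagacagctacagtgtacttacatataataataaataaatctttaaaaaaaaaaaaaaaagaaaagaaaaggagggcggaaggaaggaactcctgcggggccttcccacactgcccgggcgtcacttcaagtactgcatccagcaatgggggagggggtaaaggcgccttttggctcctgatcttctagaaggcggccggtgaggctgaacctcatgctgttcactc
Hilpda, stretch before the downstream start: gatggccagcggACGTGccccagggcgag
Ch25h: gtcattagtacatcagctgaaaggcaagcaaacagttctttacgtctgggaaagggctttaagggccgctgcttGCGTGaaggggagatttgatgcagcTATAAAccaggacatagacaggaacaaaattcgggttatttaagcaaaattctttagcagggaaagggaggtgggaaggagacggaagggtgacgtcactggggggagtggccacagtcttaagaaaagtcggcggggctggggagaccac

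Both strands were searched for ACGTG and GCGTG (the forms of the hypoxia core), TGANTCA (AP-1), TATAAA (the TATA box), and for the interferon response element and the PPAR and LXR repeats, which had no match in these windows. Before the downstream Hilpda start, ACGTG began 43 bases upstream, GCGTG 111 and 8 bases upstream, and TGANTCA 128 bases upstream. That window runs into the region transcribed from the upstream start, whose own window held no match. The Ch25h window held GCGTG at 176 and TATAAA at 151 bases upstream. Of the other genes with a promoter, Plin2 held GCGTG 86 bases upstream. Plin2 fell in TAN with all arrays in the fit, but the array TAN 3 had its highest signal. Abca1 held a single CACGTG, which matches ACGTG on both strands, at 147 and at 146 bases upstream. It also held TATAAA at 29 bases upstream, and Cd36 held no match. Over 32851 promoters of the same length, 16.6% held ACGTG, 28.2% GCGTG, 6.75% TGANTCA and 12.4% TATAAA, and 38.6% held either hypoxia core. The interferon response element was in 2.98%, the PPAR repeat in 0.0335% and the LXR repeat in 0.0152%. These matches describe letters in the windows, and no binding was measured.

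Values below are log2 signals after background correction and quantile normalization. An offset of 50 signal units in the correction makes folds of dim genes smaller than they were. A gene rose or fell where the Benjamini-Hochberg adjusted p of limma, over all 16316 probes in one model of the 15 arrays, lay under 0.05. Where a gene had several probes, the brightest on average stands for it, and errors are SDs over arrays or the standard error (SE) of a difference. Background was set on each array from the 9375 probes absent from the authors' table, and a probe counted as above it where it exceeded their percentile 95. From 12559 to 13478 probes were above background in TAN, 13337 to 13373 in G-MDSC and 13559 to 14228 in NN, and the number of arrays limits the precision.

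The arrays were not alike in ways that touch these genes. All G-MDSC, NN 6 and NN 7 had a high median background (105.4 to 114.3 signal units), and all TAN and NN 1 to NN 5 a low one (76.16 to 94.27). No level holds both TAN and G-MDSC. Of 2956 genes with several probes, the share with probes more than 4-fold apart, each taken against its NN mean, was 22.6%, 22%, 5.48% and 17.5% in TAN 1 to TAN 4, 1.32 to 2.47% in G-MDSC and 0% in every NN. The NN arrays enter the mean they are set against, so their share is low partly by construction. Because its probes disagreed least among the TAN, TAN 3 is also given as the only TAN. In that fit the spread comes from the G-MDSC and NN arrays alone, and the lone TAN is assumed to vary like them, so that its p-values carry no spread between TAN. In bulk RNA, fewer cells of a type and less RNA per cell cannot be told apart. The 16 macrophage markers measured had list means of 10.21 to 11.58 in TAN, 8.32 to 8.64 in G-MDSC and 8.29 to 8.94 in NN. In TAN relative to NN, 13 of them rose and 0 fell, while 36.8% of all named genes rose and 26.2% fell. The 7 mesothelioma and epithelial markers had list means of 8.45 to 9.23 in TAN, 6.59 to 6.68 in G-MDSC and 6.56 to 6.86 in NN. The 13 neutrophil markers had list means of 10.83 to 11.67 in TAN, 13.03 to 13.13 in G-MDSC and 14.09 to 14.26 in NN. Relative to NN, 11 of them fell and 0 rose in TAN. The falls included granule genes such as Ngp (-7.93) and Camp (-5.89). They also included the genes of surface proteins Itgam (-2.61), Csf3r (-1.34) and Cxcr2 (-0.93), while S100a8 (-0.13) and S100a9 (-0.18) did not pass. TAN 3 had the highest macrophage mean (11.58, against 10.21 to 10.85 in the other TAN) and neutrophil mean (11.67, against 10.83 to 10.94). Its mesothelioma and epithelial mean was the lowest (8.45, against 9 to 9.23). In G-MDSC 1 the 8 B cell markers had a list mean of 10.53, against 7.45 to 7.67 in the other G-MDSC, and the 7 T and NK cell markers 9.40, against 7.36 to 7.44. For 9 markers of erythroid cells the mean ran from 6.88 to 7.19 in TAN, 7.15 to 7.75 in G-MDSC and 11.27 to 11.45 in NN, and for 8 platelet markers from 7.56 to 7.72 in TAN, 6.68 to 6.81 in G-MDSC and 10.43 to 11.52 in NN. Of 8 endothelial markers, 7 fell in TAN and 8 in G-MDSC relative to NN, while 19.7% of all named genes fell in G-MDSC. Of 5 fibroblast markers, 4 rose in TAN. The part of these cells in the results below was not tested.

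Relative to NN, TAN had much higher Hilpda and Ch25h, moderately higher Fabp5, lower Lpl, and lower Plin2 in 3 of 4 arrays. G-MDSC had higher Abcg1 and Fabp5 and lower Lpl, and a Hilpda level between the other populations. In TAN relative to NN, 3 of the 6 genes rose and 2 fell, while 63% of all named genes passed the test (36.8% higher and 26.2% lower). In G-MDSC relative to NN, 3 rose and 1 fell, while 38% of all named genes passed (18.3% higher and 19.7% lower). In TAN relative to G-MDSC, 4 were higher and 2 lower, while 59% of all named genes passed (36.4% higher and 22.6% lower). The median log2 difference of the 6 genes was 0.74 in TAN relative to NN, 0.35 in G-MDSC relative to NN and 0.61 in TAN relative to G-MDSC. Over all named genes these medians were 0.12, -0.01 and 0.13. The lipid genes were chosen with earlier results of these data known, so the medians are a description and not a test. The 3 comparisons share arrays. With TAN 3 as the only TAN, 3 of the 6 genes were called between TAN and G-MDSC, while calls over all 16316 probes went down to 5610, against 9598 with all TAN.

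**Figure D1:**
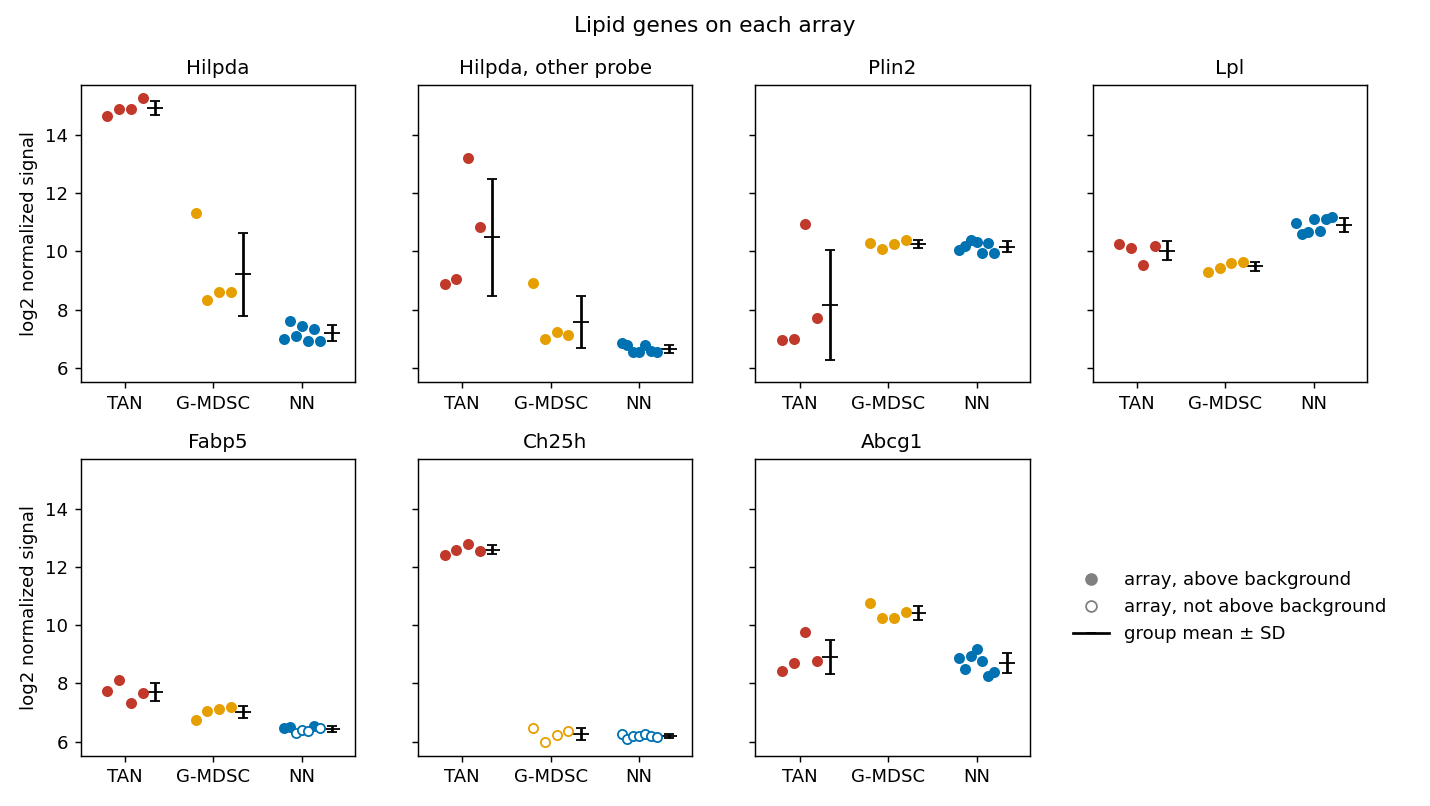
Log2 normalized signal (y axis) of each probe of the 6 genes on each array, grouped on the x axis as TAN (4 arrays), G-MDSC (4) and NN (7). Filled points were above background, open points were not, and black marks give the group mean ± SD. Hilpda (main probe) and Ch25h separated all TAN from the other arrays, and Plin2 separated TAN 3 from the other TAN.

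Hilpda encodes a small protein of the lipid droplet that hypoxia induces and that inhibits the droplet lipase ATGL. Its main probe (ILMN_2926198) read 14.66, 14.89, 14.90 and 15.26 in TAN 1 to TAN 4. The 4 G-MDSC arrays gave 11.32, 8.32, 8.61 and 8.59, and the NN ran from 6.92 over a median of 7.08 to 7.62. All TAN lay above all G-MDSC and all G-MDSC above all NN, with G-MDSC 1 well over the other G-MDSC. Groups that did not overlap in that direction were seen for 22.1% of probes in TAN over NN, 15.8% in G-MDSC over NN and 24.4% in TAN over G-MDSC. Hilpda rose in TAN by 7.74 ± 0.41 log2 units (SE), or 213.9-fold, relative to NN (limma, adjusted p = 2.17e-10). Only 3 of the 16316 probes rose more. Relative to G-MDSC it was higher in TAN by 5.71 ± 0.47 (adjusted p = 1.03e-07, limma), and by 6.42 without G-MDSC 1.

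G-MDSC exceeded NN at this probe by 2.03 ± 0.41 (limma, adjusted p = 0.00105), or 4.07-fold. Without G-MDSC 1, the array with high B cell and T cell markers, the difference was 1.32 (adjusted p = 1.22e-05). Within the arrays of high background it was 2.09 and did not pass (adjusted p = 0.11). The order of the group levels was TAN, G-MDSC, NN.

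The other Hilpda probe (ILMN_1239221) gave 8.87, 9.06, 13.20 and 10.83 in TAN 1 to TAN 4. G-MDSC read 8.90, 7.00, 7.22 and 7.13, and NN ran from 6.54 over a median of 6.57 to 6.84. TAN and G-MDSC overlapped here, since TAN 1 lay just under G-MDSC 1. The probe rose in TAN relative to NN by 3.83 ± 0.61 (adjusted p = 5.06e-05, limma), about 14.2-fold, and exceeded G-MDSC by 2.93 ± 0.69 in TAN (adjusted p = 0.00197). Without TAN 3 these differences were 2.92 and 2.03, and with background level as a block the second did not pass (2.78, adjusted p = 0.0711). G-MDSC lay wholly above NN, as was seen at 15.8% of probes. Their difference of 0.90 ± 0.61 did not pass (limma, adjusted p = 0.273). The same difference passed without TAN 3, whose spread then left the fit (adjusted p = 0.048), and it was 0.45 without G-MDSC 1. The main probe exceeded this one by 5.79, 5.84, 1.70 and 4.43 log2 units in TAN 1 to TAN 4. In G-MDSC the gap was 2.43, 1.32, 1.39 and 1.47, and in NN it was 0.12 to 0.88. TAN 3, with the fewest disagreeing probes among TAN, thus also had the smallest Hilpda gap of the TAN. With TAN 3 as the only TAN, the 2 probes rose by 7.71 and 6.54 relative to NN.

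Plin2, also called perilipin 2 or adipophilin, coats lipid droplets in most cells that are not adipocytes. Its probe (ILMN_1222246) read 6.96, 7.00, 10.96 and 7.72 in TAN 1 to TAN 4. G-MDSC gave 10.30, 10.08, 10.25 and 10.41, and NN ran from 9.93 over a median of 10.19 to 10.41. TAN 3 was the highest array of all and the other 3 TAN were the lowest, so that TAN overlapped both other groups in range. Over all arrays Plin2 fell by 2.0 ± 0.53 in TAN relative to NN (limma, adjusted p = 0.00388) and lay 2.10 ± 0.60 under G-MDSC (adjusted p = 0.00732). Without TAN 3 the differences were -2.94 and -3.03. With TAN 3 as the only TAN the sign turned, to 0.79 relative to NN and 0.70 relative to G-MDSC, values of 1 array with no TAN spread behind them. With background level as a block, the difference from G-MDSC did not pass (-2.15, adjusted p = 0.107). G-MDSC and NN did not differ beyond their spread, at 0.09 with a 95% interval from -1.04 to 1.22 (adjusted p = 0.91). The direction of Plin2 in TAN therefore turned on which TAN arrays were used. TAN 3 also differed from the other TAN in its cell type marker means, and the part of this was not tested.

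**Figure D2:**
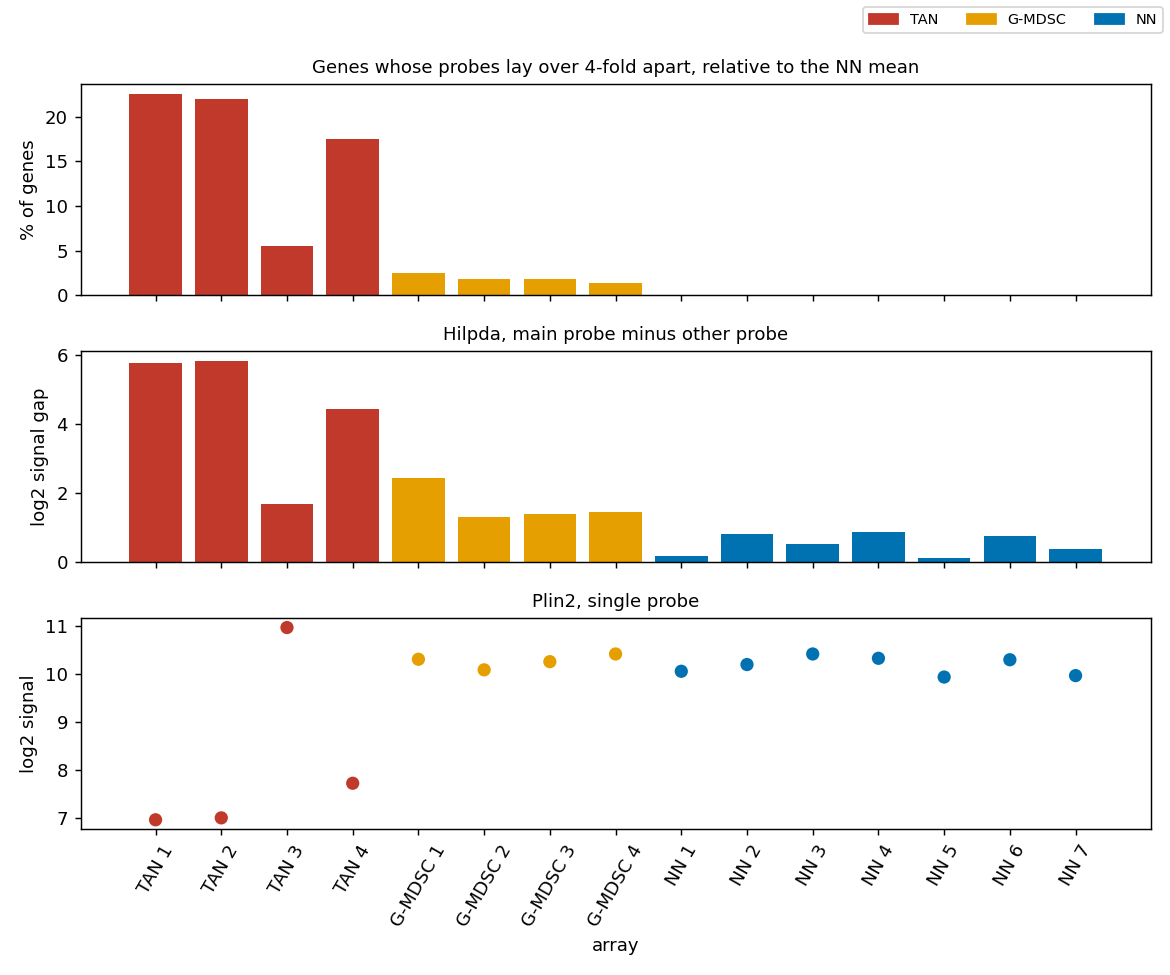
For each of the 15 arrays (x axis, TAN left, then G-MDSC and NN): the percent of 2956 genes with probes more than 4-fold apart, each against its NN mean (top), the log2 signal of the main minus the other Hilpda probe (middle) and the log2 signal of Plin2 (bottom). TAN 3 had the smallest share (5.48%) and the smallest Hilpda gap (1.70) of the TAN, and the highest Plin2 signal of any array (10.96).

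Lpl, lipoprotein lipase, frees fatty acids from the triglyceride of lipoproteins. The Lpl probe (ILMN_2692723) read 10.27, 10.12, 9.53 and 10.19 in TAN 1 to TAN 4, and 9.31, 9.42, 9.60 and 9.65 in G-MDSC. NN ran from 10.59 over a median of 10.99 to 11.19, above every TAN and every G-MDSC. Groups not overlapping with the lower one first made up 21.3% of probes in TAN against NN and 16.2% in G-MDSC against NN. Lpl fell by 0.88 ± 0.16 in TAN (limma, adjusted p = 0.000125) and fell by 1.41 ± 0.16 in G-MDSC (adjusted p = 2.3e-06), both relative to NN. TAN lay 0.53 ± 0.17 above G-MDSC (adjusted p = 0.0169), with TAN 3 inside the G-MDSC range. That difference was 0.31 with each array scaled to its median (adjusted p = 0.325), 0.45 without TAN 1 (adjusted p = 0.0554) and 0.03 where TAN 3 stood alone for TAN. The order of levels was NN, then TAN and G-MDSC. Adipocytes also make much Lpl, and 4 of their markers were measured. The list mean of these was 6.66 to 6.88 in TAN, 6.90 to 7.02 in G-MDSC and 7.07 to 7.56 in NN. Relative to NN, 0 of the 4 rose and 2 fell in TAN, and 1 rose and 1 fell in G-MDSC. The riser in G-MDSC was Lipe, hormone-sensitive lipase (0.67 ± 0.14, limma, adjusted p = 0.00114), and Lep, the hormone leptin, passed in neither comparison. The fall in G-MDSC was that of Adipoq, the adipocyte hormone adiponectin, named here after its values were seen. It averaged 6.62 ± 0.15 in TAN, 6.33 ± 0.10 in G-MDSC and 8.38 ± 0.49 in NN, above background in 2 of 4, 0 of 4 and 7 of 7 arrays. The part of these cells in the Lpl difference was not tested.

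Fabp5, a fatty acid binding protein that carries fatty acids through the cytoplasm, was dim. Its probe (ILMN_1235908) read 7.73, 8.10, 7.34 and 7.68 in TAN 1 to TAN 4, and 6.74, 7.05, 7.13 and 7.20 in G-MDSC. NN ran from 6.29 over a median of 6.46 to 6.54, with 3 of 7 arrays above background. The 3 groups did not overlap, in the order TAN, G-MDSC, NN. TAN lay wholly above NN at 22.1% of probes and above G-MDSC at 24.4%, and G-MDSC lay wholly above NN at 15.8%. Fabp5 rose by 1.28 ± 0.12 in TAN (adjusted p = 2.35e-07, limma) and by 0.60 ± 0.12 in G-MDSC (adjusted p = 0.00123) relative to NN. TAN exceeded G-MDSC by 0.68 ± 0.14 (adjusted p = 0.000691), and the single array TAN 3 exceeded G-MDSC by 0.31.

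**Figure D3:**
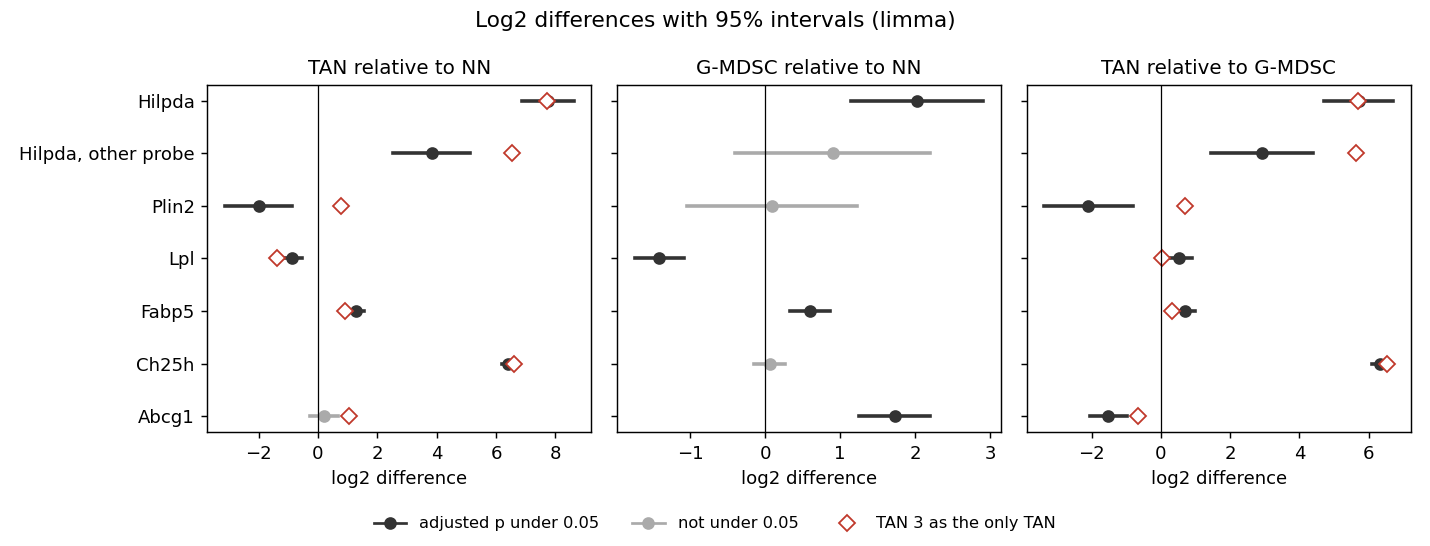
Log2 difference (x axis) of each probe (y axis) in TAN relative to NN, G-MDSC relative to NN and TAN relative to G-MDSC, with the 95% interval of the limma fit. Dark points passed an adjusted p of 0.05, grey points did not, and open diamonds give the difference with TAN 3 as the only TAN, which lies on the other side of 0 for Plin2. Ch25h is drawn as fitted, although G-MDSC and NN were at background.

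Ch25h is the enzyme that hydroxylates cholesterol to an oxysterol that macrophages release on interferon and Toll-like receptor signals. The Ch25h probe (ILMN_2702303) read 12.43, 12.57, 12.80 and 12.56 in TAN 1 to TAN 4. It was not above background in any G-MDSC (6.45, 5.98, 6.21 and 6.37) or NN (6.10 over a median of 6.2 to 6.26). Only a bound can therefore be given, setting the TAN mean of 12.59 ± 0.15 (SD, n = 4) against the lowest signal above background on each array of the other group. Ch25h was at least 69.5-fold higher in TAN than in NN and at least 68.2-fold higher than in G-MDSC. The limma adjusted p were 1.41e-16 and 1.05e-15. They belong to the fitted differences, which take the background signals of NN and G-MDSC as values, and not to the bounds. G-MDSC and NN were both at background, and no fold between them is given. The macrophage list, the mesothelioma and epithelial list and the fibroblast list were all highest in the same 4 arrays. The part of these cells in the Ch25h difference was not tested.

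Abcg1 encodes a transporter that passes cholesterol from cells to high-density lipoprotein. Its probe (ILMN_2441335) read 8.43, 8.69, 9.76 and 8.76 in TAN 1 to TAN 4, and 10.76, 10.25, 10.26 and 10.44 in G-MDSC. NN ran from 8.26 over a median of 8.76 to 9.19. All G-MDSC lay above every TAN and every NN, and TAN and NN overlapped. TAN lay wholly below G-MDSC at 19.3% of probes, and G-MDSC lay wholly above NN at 15.8%. G-MDSC exceeded NN by 1.72 ± 0.22 (limma, adjusted p = 1.45e-05), or 3.30-fold, and TAN lay 1.52 ± 0.25 below G-MDSC (adjusted p = 0.000117). TAN and NN differed by 0.21 ± 0.22 with a 95% interval from -0.27 to 0.68 (adjusted p = 0.447). With TAN 3 as the only TAN, the difference from NN was 1.05 and that from G-MDSC was -0.67, again from 1 array. Without G-MDSC 1, G-MDSC exceeded NN by 1.61 (adjusted p = 8.05e-05).

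The level of each gene over the 15 arrays was set against 10477 other genes, as a description in which arrays of one population share tissue and mostly background level. The pattern of Hilpda was most like those of Tgif1 (Pearson r = 0.997) and P4hb (0.995), and that of Plin2 most like Rps7 (0.99) and Rps2 (0.987). Lpl was most like Cyb5a (0.966) and Cd59a (0.959), and Fabp5 most like Tor3a (0.984) and Fbxo6 (0.983). Ch25h was most like Ccl7 (0.999) and Cbr2 (0.998), and Abcg1 most like H2-Oa (0.951) and Abhd4 (0.95). Among the 6 genes, Hilpda and Ch25h had r = 0.951 over the same arrays, while Lpl and Abcg1 had r = -0.819.

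Other genes of lipid handling went both ways in each list. As a base for the counts of every list below, 36.8% of all named genes rose and 26.2% fell in TAN relative to NN. In G-MDSC relative to NN, 18.3% of all named genes rose and 19.7% fell. Among 12 measured genes of the droplet coat and of triglyceride synthesis, 5 rose and 4 fell in TAN relative to NN, and 2 rose and 3 fell in G-MDSC. Agpat2, an acyltransferase of triglyceride synthesis, fell by 4.97 ± 0.41 in TAN (adjusted p = 3.25e-08), where only TAN 3 was above background, and fell by 1.53 ± 0.41 in G-MDSC (adjusted p = 0.00772). Without TAN 3 its TAN difference was -5.66. Dgat1, which makes triglyceride in its last step, fell by 1.46 ± 0.22 in TAN (limma, adjusted p = 2.78e-05), while TAN 3 differed from the NN mean by only -0.44. The droplet protein Plin5 rose by 0.94 ± 0.24 in TAN (adjusted p = 0.00292) and by 1.45 ± 0.24 in G-MDSC (adjusted p = 0.000156), but TAN 3 differed from the NN mean by only 0.07. Only 1 of the 2 Plin5 probes went in that direction in TAN relative to NN. In TAN 3 as the only TAN, 1 gene of this list rose and 2 fell. Without TAN 3 and G-MDSC 1, 2 rose and 6 fell in G-MDSC.

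Of 8 measured genes that break down triglyceride and cholesterol ester, 4 rose and 3 fell in TAN and 4 rose and 3 fell in G-MDSC, relative to NN. G0s2, an inhibitor of the droplet lipase ATGL, rose by 3.68 ± 0.22 in TAN (limma, adjusted p = 9.9e-10) and by 1.07 ± 0.22 in G-MDSC (adjusted p = 0.00123). Abhd5, the activator of that lipase, fell by 2.72 ± 0.11 in TAN (adjusted p = 9.28e-12) and fell by 2.23 ± 0.11 in G-MDSC (adjusted p = 3.04e-10). Mgll, the lipase of monoglycerides, fell by 2.82 ± 0.11 in TAN (adjusted p = 8.16e-12), and Npc2, which binds cholesterol in lysosomes, rose by 2.77 ± 0.12 (adjusted p = 2.27e-11).

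Of 15 measured genes of lipoprotein and fatty acid uptake, 8 rose and 2 fell in TAN and 3 rose and 4 fell in G-MDSC, relative to NN. Lmf1, a chaperone that Lpl needs to mature, rose by 2.56 ± 0.17 in TAN (limma, adjusted p = 2.45e-09), while Lpl itself fell. The lipoprotein receptor Lrp1 rose by 1.83 ± 0.13 (adjusted p = 4.48e-09) and was above background in 3 of 7 NN. Acsl4, which activates polyunsaturated fatty acids, rose by 2.19 ± 0.20 (adjusted p = 1.42e-07), with 2 of its 4 probes in that direction. The fatty acid transporter Slc27a4 fell by 1.61 ± 0.19 in TAN (adjusted p = 2.3e-06) and fell by 1.38 ± 0.19 in G-MDSC (adjusted p = 2.97e-05). Background level as a block left 2 genes of this list that rose and 1 that fell in G-MDSC.

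**Figure D4:**
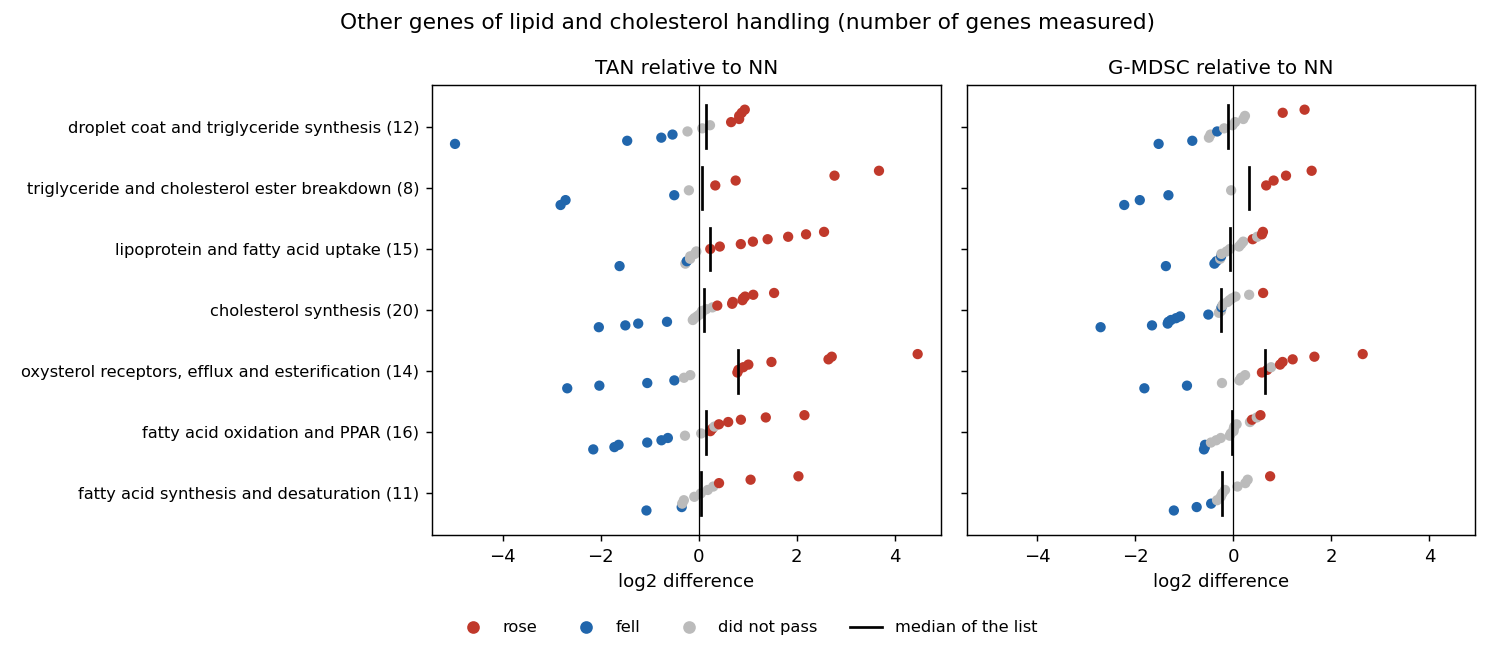
Log2 difference (x axis) of each measured gene of 7 lists of lipid and cholesterol handling (y axis, number of genes in brackets) in TAN relative to NN (left) and G-MDSC relative to NN (right). Red genes rose, blue genes fell, grey genes did not pass the limma test, and black lines are list medians, which lay between 0.04 and 0.80 in TAN and between -0.25 and 0.64 in G-MDSC.

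Cholesterol synthesis had 20 measured genes, of which 8 rose and 4 fell in TAN and 1 rose and 9 fell in G-MDSC, relative to NN. Compared with G-MDSC, 13 of the 20 were higher in TAN and 1 was lower, against 36.4% and 22.6% of all named genes. Taking TAN 3 as the only TAN left 8 higher and 0 lower. Lss, lanosterol synthase, rose by 1.54 ± 0.14 in TAN (limma, adjusted p = 6.88e-08). The sterol reductase Hsd17b7 fell by 1.5 ± 0.19 in TAN (adjusted p = 3.42e-06) and fell by 2.71 ± 0.19 in G-MDSC (adjusted p = 1.02e-08). The sterol isomerase Ebp fell by 2.04 ± 0.42 in TAN (adjusted p = 0.000538), although TAN 3 lay 0.13 above the NN mean, and the difference was -2.76 without it.

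Of 14 measured genes of oxysterol receptors, cholesterol efflux and esterification, 8 rose and 4 fell in TAN and 7 rose and 2 fell in G-MDSC, relative to NN. The phospholipid transfer protein Pltp rose by 4.47 ± 0.20 in TAN (limma, adjusted p = 2.07e-11), with 1 of its 2 probes in that direction, and by 1.21 ± 0.20 in G-MDSC (adjusted p = 0.000127). Cyp27a1, a sterol hydroxylase of mitochondria, rose by 2.72 ± 0.18 in TAN (adjusted p = 2.01e-09) and by 2.64 ± 0.18 in G-MDSC (adjusted p = 7.58e-09), and TAN and G-MDSC did not differ beyond their spread (0.08, adjusted p = 0.757). Lpcat3, which remodels membrane phospholipids, fell by 2.68 ± 0.27 in TAN (adjusted p = 3.62e-07) and fell by 0.95 ± 0.27 in G-MDSC (adjusted p = 0.0119).

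Of 16 measured genes of fatty acid oxidation and PPAR control, 7 rose and 6 fell in TAN and 2 rose and 3 fell in G-MDSC, relative to NN. Ppargc1b, a transcriptional coactivator, rose by 2.16 ± 0.21 in TAN (limma, adjusted p = 2.72e-07), and Acadm, a mitochondrial acyl-CoA dehydrogenase, fell by 2.15 ± 0.21 (adjusted p = 2.15e-07). Etfdh, which passes electrons from these dehydrogenases on, fell by 1.72 ± 0.25 (adjusted p = 1.63e-05) and was above background in 2 of 4 TAN. Its partner Etfa fell by 0.60 ± 0.19 in G-MDSC (adjusted p = 0.024), a call lost without G-MDSC 2 or G-MDSC 3 (adjusted p = 0.0726 in each). In TAN, Etfa fell by 0.63 ± 0.19 relative to NN (limma, adjusted p = 0.0106), with 2 of its 4 probes in that direction. That call was lost without TAN 1 (limma, adjusted p = 0.0515), and TAN 3 lay 0.13 above the NN mean. Of this list, 2 genes rose and 4 fell with TAN 3 as the only TAN, and 0 rose and 3 fell in G-MDSC with background level as a block.

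Of 11 measured genes of fatty acid synthesis and desaturation, 3 rose and 2 fell in TAN and 1 rose and 3 fell in G-MDSC, relative to NN. The desaturase Fads1 rose by 2.04 ± 0.13 in TAN (limma, adjusted p = 1.3e-09) and fell by 1.21 ± 0.13 in G-MDSC (adjusted p = 1.35e-06). The elongase Elovl5 fell by 1.07 ± 0.14 in TAN (adjusted p = 5.43e-06). Acaca, which commits carbon to fatty acid synthesis, rose by 1.06 ± 0.24 (adjusted p = 0.00114), while TAN 3 differed from the NN mean by 0.01. Scaling each array to its median left 1 gene of this list that rose and 1 that fell in G-MDSC.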

How the data were processed

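The deposited array files hold the probe signal intensity that the authors exported from BeadStudio, with no background subtraction or normalization found in the values. The deposited table of normalized intensity, which the authors filtered, was used to choose probes and as an alternative. Signals were corrected with normexp (offset 50), taken to log2 and quantile normalized with limma 3.58.1 in R 4.3.3. Of the 16322 probes in the authors' table, 6 that differed by less than 1.2-fold between any arrays were dropped. The study used an analysis of variance over the 3 groups, and here limma fitted 1 mean per group over 15 arrays, with Benjamini-Hochberg adjustment at 0.05. The fit was tested on simulated data. The 9 genes and the other lists were chosen with earlier results of these data known. Named beyond them were, per list, the 3 largest differences past the threshold in TAN relative to NN, the largest in G-MDSC relative to NN, and 2 genes of like pattern for each gene. Gene names came from the platform annotation, with former symbols updated, and named 15321 of the probes tested while 995 had no name. Background correction, scaling, filter, values, moderation, array weights, blocks and arrays left out were varied.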

Additional observations from a re-analysis of the deposited data

Results flagged for a closer look

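Both Hilpda probes had a G-MDSC array far from the others of its group. The main probe read 11.32 in G-MDSC 1, with the nearest other G-MDSC at 8.61, and the other probe read 8.90 in G-MDSC 1, with the nearest at 7.22. The gap made up 0.902 and 0.881 of the range of the group. Of 21 groups tested in this way, chance alone flags about 1 in 20. The same array had the highest B cell and T and NK cell marker means of the G-MDSC, and the part of this in the Hilpda values was not tested.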

How the results depend on the processing

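The 5, 4 and 6 lipid genes called in TAN relative to NN, G-MDSC relative to NN and TAN relative to G-MDSC became 5 to 5, 4 to 4 and 5 to 6 when each array was left out in turn. Plin2 reversed with TAN 3 as the only TAN (0.79 relative to NN and 0.70 relative to G-MDSC), where 3 lipid genes were called in TAN relative to G-MDSC. Over all probes, 10073, 5954 and 9598 were called in these comparisons, and 9204 to 10890, 5063 to 7376 and 8678 to 10587 with an array left out. TAN 3 as the only TAN gave 6557 and 5610 calls relative to NN and G-MDSC, with fewer arrays. Background level as a block gave 3941 in G-MDSC relative to NN and 5419 in TAN relative to G-MDSC, and array weights gave 9615 in G-MDSC relative to NN. The cause was not tested. Scaling each array to its median moved the calls higher and lower in G-MDSC relative to NN to 3416 and 2106, against 2938 and 3016, and in TAN relative to G-MDSC to 3747 and 4871, against 5235 and 4363. The replicate block gave 8837, 5701 and 9295 probes and changed no lipid gene call. Same-numbered arrays correlated at -0.309 to 0.266, and 5 of 12 arrays correlated best with their own number, so the numbers were not taken to pair arrays. List counts under arrays left out, block and scaling, and leaving out arrays for the named genes of the lists, were chosen after seeing the data.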
